A study of Mus musculus with 2 samples.

Results

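The genes described here encode the ligands, receptors, inhibitors and a target of TGF-beta and activin signalling, 10 genes in all: Tgfb1, Tgfb2, Tgfb3, Inhba, Inhbe, Tgfbr1, Tgfbr2, Smad7, Fst and Ccn2. They were taken by name from the probes of both arrays, with Ccn2 under its older symbol Ctgf, and are 10 of 31896 gene names on the array. They were measured by 13 probes, of which 11 stood well above background on both arrays, as flagged by the scanner software. The tissue was liver of C57BL/6 mice, with 1 array of a wild-type mouse and 1 array of a mouse of the genotype Alb-Cre;CAG-floxed neo-Snail. Alb-Cre is a Cre recombinase under the albumin promoter, a hepatocyte promoter, so the transgene was directed at that cell type. Whether it reached other cells of the liver is not known from the labels. By its title, the study concerns steatohepatitis and liver tumours under enforced Snail, and its arrays compare a liver of each genotype. The labels give no age, sex or treatment, and do not say whether the tissue held a tumour.

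TGF-beta and activin are secreted dimers that bind a type II receptor kinase, which then activates a type I receptor and, through it, the transcription factors Smad2 and Smad3. Activins are dimers of inhibin beta chains, and follistatin, the product of Fst, binds them outside the cell and blocks them. In liver, TGF-beta drives matrix production by stellate cells and both pathways restrain hepatocyte growth, while Inhbe and Inhbc are made mainly by hepatocytes. TGF-beta is also a classical inducer of Snail and of the epithelial-mesenchymal transition.

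The probe sequences of Tgfb1, Tgfb2, Inhba and Tgfbr2 are shown because the first pair reads closely related ligands by matching stretches, and the second pair reads a ligand and a receptor that lay 2-fold or more apart between the arrays. Each is 60 bases long and given 5′ to 3′. In the Tgfb1 and Tgfb2 probes, capitals mark the bases that are identical in the best ungapped overlap of both, where 28 of 41 bases (68.3%) matched. In the Tgfbr2 probe, capitals mark the stop codon of the receptor's reading frame.
Tgfb1, chr7:26489877-26489936 (mm9, + strand): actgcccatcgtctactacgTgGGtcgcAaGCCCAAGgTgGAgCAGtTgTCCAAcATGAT
Tgfb2, second probe, chr1:188449333-188449392 (mm9, - strand): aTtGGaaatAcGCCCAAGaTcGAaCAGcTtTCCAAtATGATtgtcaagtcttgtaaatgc
Inhba, chr13:16118634-16118693 (mm9, + strand): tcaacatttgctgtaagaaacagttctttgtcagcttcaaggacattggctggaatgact
Tgfbr2, second probe, chr9:115999496-115999555 (mm9, - strand): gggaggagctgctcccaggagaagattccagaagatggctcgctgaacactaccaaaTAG
Of the 13 probes, 4 held the polyadenylation hexamer AATAAA, and their GC content ran from 25% to 55%. Exons and untranslated regions at the probe positions were not analysed here.

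Of 43020 non-control spots, 50.7% passed the background call for wild-type liver and 54% for the library labelled Snail. The arrays shared 1 slide and 1 scan. Signals were scaled to the 75th percentile of each array's non-control spots, 232.7 and 302.1, so a scaled signal is given as a percent of that percentile. Differences are log2 differences of scaled signals, the library labelled Snail minus wild-type. With 1 array per group there is no replicate check and no test. The probes printed repeatedly gave a technical spread of the log2 difference, the median SD between spots, of 0.19 for signals under 100 (geometric mean of both arrays), 0.07 from 100 to 1000 and 0.04 above 1000. This spread holds no difference between animals. The Snai1 probe, for the gene of the transgene's product, gave signals of 23.2 and 22.3, a log2 difference of -0.44. Whether that probe reads the transgene's transcript is not known from the labels or files, so it does not check the label, and the library is called the library labelled Snail.

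Of the 9 members measured on both arrays, 2 lay 2-fold or more above wild-type in the library labelled Snail, the target gene Ccn2 and the type II receptor gene Tgfbr2. Another 2 lay 2-fold or more below it, the activin chain gene Inhba and the activin antagonist gene Fst. The TGF-beta ligand genes Tgfb1 and Tgfb3, the type I receptor gene Tgfbr1 and the hepatocyte activin chain gene Inhbe lay within 1.23-fold of wild-type, and the inhibitory Smad gene Smad7 lay between, at 1.52-fold higher. Among all 15466 genes so measured, 3.96% lay that far above wild-type and 6.34% that far below. Counted by probe, 3 of the members' 11 lay 2-fold or more above and 2 as far below, beside 3.75% and 6.16% of all probes. Of their 6 probes with signals under 100, 1 lay above and 2 below, beside 4.83% and 5.83% of all probes as dim. The median log2 difference of the 9 members was 0.17, beside -0.03 over all genes. Values of dim probes depend on the background step: with normexp, which adds an offset to every signal, 0 members reached 2-fold in either direction, while every one of the 4 kept its side, with log2 differences of 0.81 for Ccn2, 0.85 for Tgfbr2, -0.81 for Inhba and -0.89 for Fst.

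**Figure D1:**
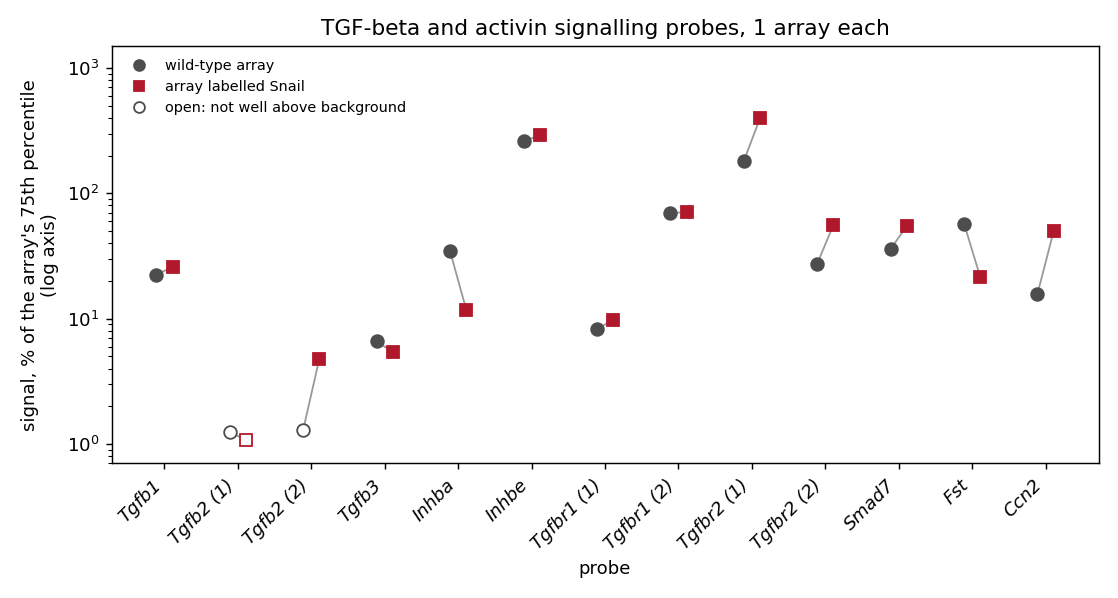
Scaled signal of each of the 13 probes on the wild-type array (circles) and the array labelled Snail (squares), as a percent of the array's 75th percentile on a log axis, with 1 array each and open symbols where the probe was not well above background. Both Tgfbr2 probes and the Ccn2 probe were higher on the array labelled Snail, and the Inhba and Fst probes were lower.

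Among the ligands, the Tgfb1 transcript differed little. Tgfb1 encodes the main TGF-beta ligand of injured liver, and its probe was printed 10 times on each array. Its spots ran from 18.7% to 32.8% of the 75th percentile in wild-type liver, with a median of 22.3%. In the library labelled Snail they ran from 23.2% to 28.4%, with a median of 26.1%. The spots of both arrays overlapped, although 9 of the 10 positions were higher in the library labelled Snail. The mean log2 difference was 0.20 ± 0.21 (SD over 10 spots), a 1.15-fold difference. With normexp the Tgfb1 value was -0.0009.

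Tgfb3 and Tgfb2 were at the edge of detection. The Tgfb3 probe was also printed 10 times, and 6 of its spots were well above background in wild-type liver and 8 in the library labelled Snail. Its unscaled signals ran from 11.5 to 20.1 with a median of 15.9 in wild-type liver, and from 12.6 to 20.1 with a median of 16.9 in the other. The mean log2 difference was -0.30 ± 0.36 (SD over 10 spots), with 2 of the 10 positions higher in the library labelled Snail, and the spots of both arrays overlapped. Of the Tgfb2 probes, the first did not clear background on either array, with signals of 2.90 and 3.26. The second, shown above, was not well above background in wild-type liver, at 3.04, and was called above it in the library labelled Snail, at 14.5. That brighter signal was 4.80% of its array's 75th percentile, below what the lowest call on the wild-type array amounts to, so it has no fold, and a difference in Tgfb2 was not detectable.

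**Figure D2:**
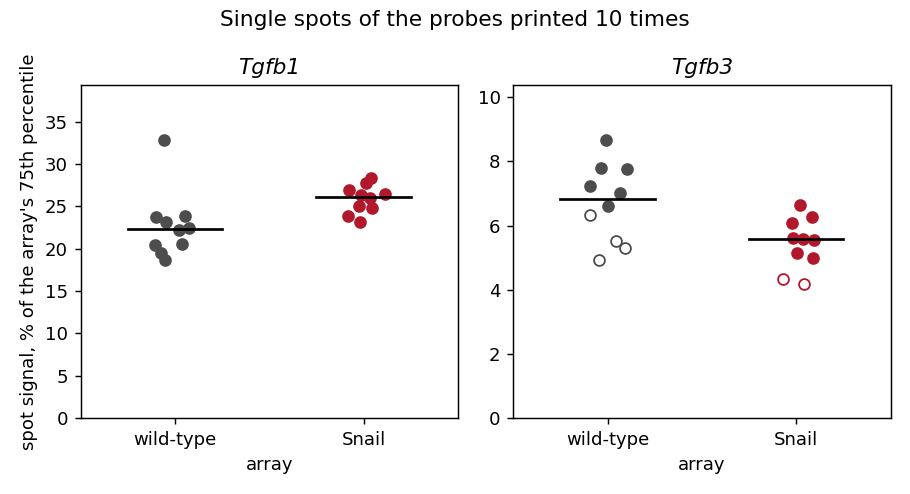
Each point is a single spot of the Tgfb1 probe or the Tgfb3 probe, as a percent of the array's 75th percentile, with open points for spots not well above background and a bar at the median of 10 spots. Tgfb1 spots overlapped with medians of 22.3% and 26.1%, and Tgfb3 spots overlapped with medians of 6.82% and 5.58%.

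The activin chain genes went in different directions. Inhba, whose product forms activin A, gave 80.3 as its signal in wild-type liver against 35.7 in the library labelled Snail, with errors of 8.52 and 4.49 by the scanner software's error model. The scaled signals were 34.5% and 11.8%, a log2 difference of -1.55 or 2.92-fold lower, against a technical spread of 0.19. Of all genes measured on both arrays, 2.69% had a lower value than Inhba. Inhbe, whose product forms activin E, a hepatocyte hormone that acts on fat tissue, was bright, with signals of 603.4 and 880.8. After scaling these were 259.3% and 291.5%, a log2 difference of 0.17 or 1.12-fold higher, against a technical spread of 0.07.

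Other chains of the activin and inhibin family were taken from a wider list of 12 related ligands, of which 6 were measured on both arrays. Inhbb, whose product forms activin B, was the single gene of that list 2-fold or more apart. Its signals were 25.14 and 94.99, a log2 difference of 1.54, which was 0.54 with normexp. Over all genes, 3.96% lay 2-fold or more above wild-type and 6.34% as far below. Inhbc, the other hepatocyte chain, had signals of 298.5 and 226.9 and a log2 difference of -0.77. Of the 4 beta chain genes, Inhbb thus lay above wild-type by more than 2-fold, Inhba below it by more than 2-fold, and Inhbe and Inhbc within 2-fold. Inha, which encodes the inhibin alpha chain, did not clear background on either array.

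Fst, whose product sequesters activins, gave 133.5 as its signal in wild-type liver against 65.1 in the library labelled Snail, with scanner errors of 13.6 and 7.07. The scaled signals were 57.4% and 21.6%, a log2 difference of -1.41 or 2.66-fold lower, against a technical spread of 0.19. Fst and Inhba, an antagonist and a ligand of the same branch, both had lower values in the library labelled Snail. Of all genes measured on both arrays, 3.19% lay below Fst. The related antagonist gene Fstl3 did not clear background on either array.

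The receptors differed from each other. Tgfbr2, which encodes the type II receptor that binds TGF-beta, was read by 2 probes that agreed to within 0.11 on the log2 scale. The first had signals of 420.5 and 1196, or 180.7% and 396.0% after scaling, a log2 difference of 1.13. The second, shown above, had signals of 64.0 and 168.6, or 27.5% and 55.8% after scaling, a log2 difference of 1.02. Their mean was 1.08, or 2.11-fold higher, against a technical spread of 0.07 that comes from other probes. The second probe's mean signal lay just above 100, below which that spread was 0.19. Scanner errors were 42.1 and 119.7 for the first probe, and 7.02 and 17.1 for the second. Of all genes measured, 3.36% lay above Tgfbr2.

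Tgfbr1, which encodes the type I kinase that works with it, showed no difference of that size. Its brighter probe had signals of 163.1 and 212.7, or 70.1% and 70.4% after scaling, a log2 difference of 0.01. Its dimmer probe had signals of 19.2 and 29.6 and a log2 difference of 0.25. The mean over both probes was 0.13, and -0.09 with normexp.

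Among 14 other receptors and co-receptors, 11 were measured. Of these, 2 were 2-fold or more below wild-type and 0 as far above it, beside 6.34% and 3.96% of all genes. Their median log2 difference was -0.02. Acvr2b, which encodes a type II receptor for activins, had signals of 1269 and 410.4, a log2 difference of -2.01, and it was read by a single probe. Amhr2, the receptor gene for anti-Müllerian hormone, was dimmer, with signals of 42.4 and 25.3 and a log2 difference of -1.12, which was -0.49 with normexp. Acvr2a, the other activin type II receptor gene, had a log2 difference of 0.03, and Tgfbr3, which encodes the co-receptor betaglycan, one of -0.31. Bmpr2 was the highest of the list, at 0.36.

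Smad7 encodes the inhibitory Smad that is itself induced by the pathway and blocks the type I receptor. Its signals were 83.9 and 165.5, with scanner errors of 8.85 and 16.8. The scaled signals were 36.1% and 54.8%, a log2 difference of 0.60 or 1.52-fold higher, against a technical spread of 0.07. The mean signal of this probe lay not far above 100, below which that spread was 0.19. Over the alternatives its value ran from 0.45 to 0.61. Of all genes measured, 9.63% lay above Smad7.

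The Smads that carry the signal lay within 2-fold. Smad2, Smad3 and Smad4 had log2 differences of 0.08, -0.13 and 0.36, and the 2 Smad4 probes differed, at 0.19 and 0.53. Of 13 Smads and nuclear partners, 12 were measured. Among them 2 were 2-fold or more above wild-type and 0 as far below it, beside 3.96% and 6.34% of all genes. Their median was 0.15. Smad9, which encodes a Smad of the BMP branch, had signals of 27.4 and 136.7, a log2 difference of 1.94 (0.82 with normexp), and Crebbp, which encodes a coactivator of many transcription factors, had signals of 2676 and 7886, a log2 difference of 1.18.

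Ccn2, also called connective tissue growth factor, is a matricellular protein induced by TGF-beta and by the transcriptional coactivator YAP. Its probe read 36.8 in wild-type liver against 150.5 in the library labelled Snail, with scanner errors of 4.63 and 15.3. The scaled signals were 15.8% and 49.8%, a log2 difference of 1.65 or 3.15-fold higher, against a technical spread of 0.19. Of all genes measured, 1.29% lay above Ccn2. The related gene Ccn1, which responds to many of the same cues, had signals of 73.9 and 67.4 and a log2 difference of -0.51. Ccn4 was at 0.13, and Ccn3, Ccn5 and Ccn6 were not well above background on either array.

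**Figure D3:**
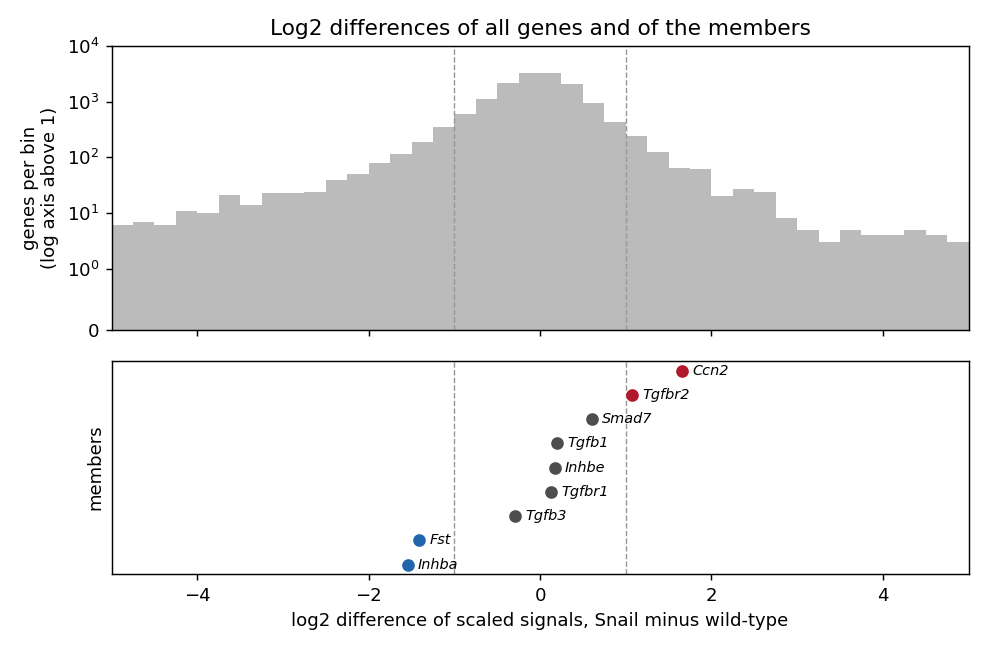
The upper panel counts genes by log2 difference, the library labelled Snail minus wild-type, in bins of 0.25 on a log axis and drawn between -5 and 5 (19 of 15466 genes lie outside), and the lower panel places the 9 measured members. Dashed lines mark 2-fold, with Ccn2 and Tgfbr2 above it and Inhba and Fst below it.

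Other TGF-beta target genes were read from a list of 21, of which 15 were measured. Among them 3 were 2-fold or more above wild-type and 0 as far below it, beside 3.96% and 6.34% of all genes. Their median was 0.33. The higher genes were the cell cycle inhibitor gene Cdkn1a, at a log2 difference of 2.54 with signals of 60.7 and 457.7, the transcription regulator gene Tsc22d1, at 1.59 with signals of 250.2 and 968.3, and the collagen gene Col1a1, at 1.32 with signals of 51.3 and 166.3. Cdkn1a is also a target of p53, and a second Cdkn1a probe did not clear background on either array. The lowest gene of the list was Tgfbi, named for its induction by TGF-beta, at -0.85. With normexp Col1a1 was at 0.74, Tsc22d1 at 1.30 and Cdkn1a at 1.76.

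Of 12 target genes of YAP and its partner TEAD, 9 were measured, and their median was 0.12. Among them 1 was 2-fold or more above wild-type and 1 as far below it, beside 3.96% and 6.34% of all genes. Crim1 was at 1.25 with signals of 53.5 and 164.8 (0.75 with normexp), and Nt5e, which encodes the ectoenzyme CD73, was at -2.09 with signals of 1041 and 317.8. Ankrd1 did not clear background on either array.

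The storage and release genes of latent TGF-beta that were measured lay within 2-fold. Of 16 genes, 10 were measured, at a median of -0.13, and 6 cleared background on neither array. Of the 10, 0 were 2-fold or more above or below wild-type, beside 3.96% and 6.34% of all genes. The highest was Mmp14, a membrane metalloprotease gene, at 0.88, and the lowest was Plg, the plasminogen gene, at -0.93. Among 20 inhibitors inside and outside the cell, 13 were measured, at a median of 0.07. Of these, 0 were 2-fold or more above or below wild-type, beside the same 3.96% and 6.34% of all genes. The BMP antagonist gene Bmper cleared background in wild-type liver only. Pmepa1, a feedback inhibitor induced by TGF-beta, was the highest at 0.69, and Dcn, which encodes the TGF-beta binding proteoglycan decorin, the lowest at -0.94. Over all the other lists of the pathway, with each gene counted once, 83 of 121 genes were measured. Of these, 7 lay 2-fold or more above wild-type and 6 as far below, beside 3.96% and 6.34% of all genes, and the median was 0.04. With normexp these counts were 3 and 2, beside 1.92% and 3.7% of all genes.

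**Figure D4:**
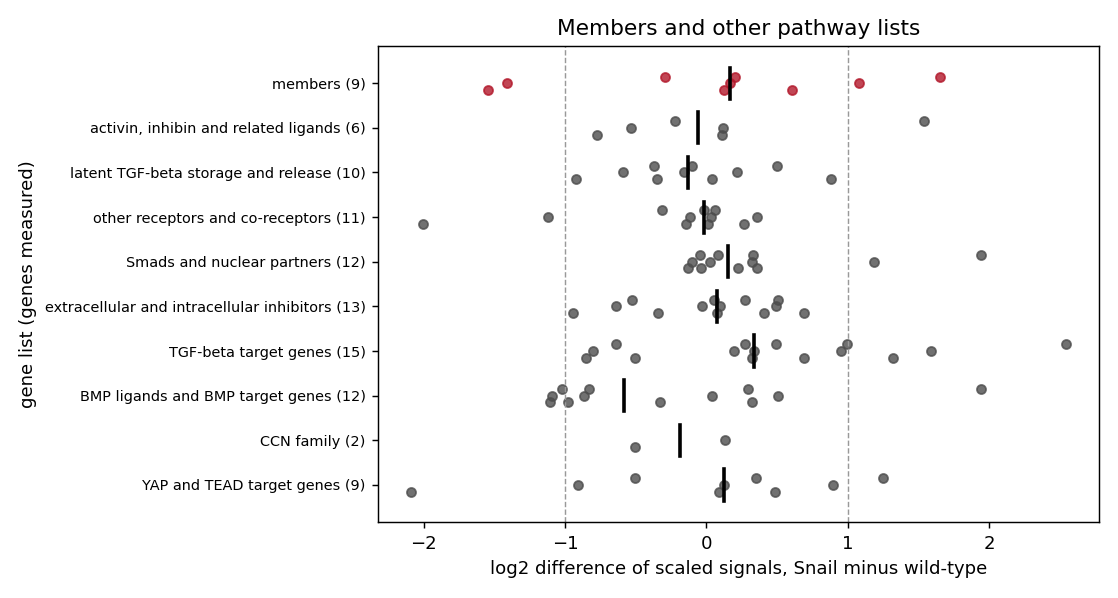
Each point is a gene measured on both arrays, placed by its log2 difference, with the members in red, the other lists in grey, the number measured in brackets and a bar at the median of each list. Dashed lines mark 2-fold, and list medians lie between -0.58 for BMP ligands and targets and 0.33 for TGF-beta targets.

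Markers of the liver's cell types were read beside these values, since in whole tissue fewer cells of a type and less RNA per cell cannot be told apart. Over all genes, 3.96% lay 2-fold or more above wild-type and 6.34% as far below. All 10 hepatocyte markers were measured and had lower values in the library labelled Snail with this scaling, 3 of them by 2-fold or more. Alb, Ttr and Apoa1 were at -0.63, -0.94 and -3.04, while Apob and Hnf4a were nearest to wild-type, at -0.19 and -0.24. These markers are bright, and their values were not recomputed under other scalings. Some bright genes of the pathway lists rose under quantile normalization, such as Plg from -0.93 to -0.61 and Hamp from -1.02 to -0.70. Dcn, which is also a stellate cell marker, rose from -0.94 to -0.71, Tgfbi from -0.85 to -0.77 and Crebbp from 1.18 to 1.34. Of 15 stellate cell and myofibroblast markers 13 were measured, 4 were 2-fold or more below wild-type and 1, Col1a1, as far above. The list was split: 2 of the 13 had higher values, the collagen genes Col1a1 at 1.32 and Col3a1 at 0.95. Acta2 was well above background in the library labelled Snail only. Over the 13 the median was -0.89, and Lrat, Reln and Rgs5 were at -1.01, -0.79 and -0.96. The summed scaled signal of the 13 was 10929% in wild-type liver against 4972% in the library labelled Snail. Most of that sum came from Dcn and Ecm1, at -0.94 and -1.34. Of 12 macrophage markers 11 were measured, 2 of them 2-fold or more above wild-type, with a median of 0.15, summed signals of 9124% and 11224%, and Clec4f, Vsig4 and Timd4 at 0.15, 0.07 and 0.11. Of 11 endothelial markers 10 were measured, with a median of 0.07 and summed signals of 5507% and 5225%. Stab1, Stab2 and Lyve1 were at -0.10, -0.23 and 1.99, and 2 lay 2-fold or more above wild-type, Lyve1 and Cd34 at 1.39. Of 8 cholangiocyte markers 2 were measured, at a median of 1.06, while Krt7, Krt19 and Epcam were not well above background on either array. Neutrophil markers had a median of 0.92 over 5 measured genes, with summed signals of 354.1% and 725.2%. They disagreed: S100a8, S100a9 and Ly6g were at 1.99, 1.57 and 0.92, while Elane and Camp were at 0.10 and -0.11. Mpo cleared background in the library labelled Snail only, and Ngp and Ltf on neither array. Over 6 measured markers of T and NK cells the median was 0.04, with Zap70 at -2.18 and Cd4 at -1.36 as the 2 that lay 2-fold or more below wild-type and 0 as far above. Their summed signals were 3999% for wild-type and 1255% for the library labelled Snail, most of it from Zap70, with signals of 5544 and 1686. Over 5 measured markers of B and plasma cells the median was 0.48, with Ms4a1 at 1.25 and Sdc1 at -1.27. Sdc1, with signals of 2510 and 1355, made up most of their sums of 1180% and 592.2%. Erythroid markers had a median of -0.37 over 4 measured genes, and 1 of 5 platelet markers was measured, at 0.60. The part of any of these cell types in the values of the members was not tested.

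Promoter sequence was at hand for 6 of the 10 genes, as 7 windows of the 250 bases before an annotated start (RefSeq, GRCm38.p6). They were searched on both strands, over all 32851 promoters of the same length, for CAGGTG, the E-box that Snail binds, CAGAC, the SMAD box, GGAATG, the motif of TEAD factors, and TATAAA, the TATA box. No motif match overlapped another in the windows printed. CAGGTG was in 1 of the 7 windows, that of Inhbe, and in 17.2% of all promoters. CAGAC was in 4 of the 7, those of Tgfb2, Tgfbr2, Inhbe and 1 of the Tgfbr1 starts, and in 42.2% of all. TATAAA was in 2, those of Tgfb2 and Inhba, and in 12.4% of all, and GGAATG was in 0 and in 12.6% of all. The windows of Tgfbr2 and Inhba are shown as those of the higher receptor and the lower ligand, and that of Inhbe for its E-box, with every motif match in capitals.
Tgfbr2, chr9:116175364-116175613 (GRCm38.p6, - strand): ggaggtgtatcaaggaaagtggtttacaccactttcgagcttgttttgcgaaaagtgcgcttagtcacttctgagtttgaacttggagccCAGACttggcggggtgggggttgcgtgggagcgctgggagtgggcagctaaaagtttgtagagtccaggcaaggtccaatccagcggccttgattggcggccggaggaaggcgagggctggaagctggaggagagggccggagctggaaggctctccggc
Inhba, chr13:16011601-16011850 (GRCm38.p6, + strand): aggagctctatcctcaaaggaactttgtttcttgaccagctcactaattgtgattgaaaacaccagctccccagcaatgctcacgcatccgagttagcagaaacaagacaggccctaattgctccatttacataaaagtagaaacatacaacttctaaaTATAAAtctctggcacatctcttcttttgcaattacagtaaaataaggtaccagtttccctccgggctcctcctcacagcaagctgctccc
Inhbe, chr10:127351849-127352098 (GRCm38.p6, - strand): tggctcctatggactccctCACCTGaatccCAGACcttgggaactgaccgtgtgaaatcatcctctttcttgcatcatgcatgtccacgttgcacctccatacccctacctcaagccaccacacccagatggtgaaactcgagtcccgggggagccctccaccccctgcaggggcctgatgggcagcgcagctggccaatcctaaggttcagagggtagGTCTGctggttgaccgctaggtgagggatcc
The CAGAC match of Tgfbr2 began 160 bases before the start and the TATAAA match of Inhba 91 bases before it. In the Inhbe window the E-box, read as CACCTG, began 231 bases before the start, with SMAD boxes at 220 and 31 bases. Inhbe, whose window held the Snail E-box, was 1.12-fold higher than wild-type. Neither Tgfbr2 nor Inhba held those letters in its 250 bases, and no window was at hand for Ccn2 or Fst. Whether any of these motifs bears on the members' values was not tested.

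**Figure D5:**
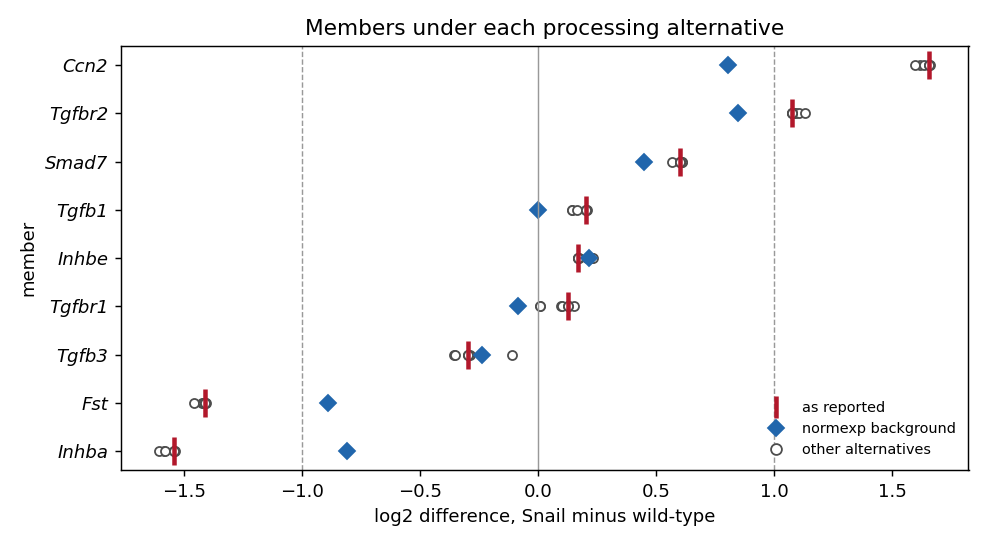
Log2 difference of each measured member as reported (red bar), with normexp background correction (blue diamond) and under the other alternatives (open circles), with lines at 0 and at 2-fold. Ccn2, Tgfbr2, Inhba and Fst kept their side of 0 under all alternatives that gave them a value and lay within 2-fold with normexp.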

How the data were processed

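Liver RNA was amplified, labelled with Cy3 and hybridized to 1-colour Agilent arrays, per the labels' protocols. The deposited scanner output, from Agilent Feature Extraction 9.5.1.1 by the submitters' processing notes, holds intensity values that the software had background-subtracted and detrended array by array, with no scaling between them, per the file headers. A deposited table of processed values for 39429 probes served as an alternative. Its scale and centring are unstated: the columns are linear, follow their own array (r = 1.00 across probes), have a median of 17.3 each and share their sorted values to within 0.108.

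Processed signals were divided by the 75th percentile of the 43020 non-control spots of their array. The 287 spots with an outlier flag on either array were left out, and 0 spots were saturated. Log2 values were averaged over spots of a probe, and a probe counted as well above background where more than 50% of its spots did. Genes are given as means over probes well above background on both arrays. A gene seen on 1 array has a bound, its scaled signal there over the higher of the other array's lowest signal well above background (13.8 for wild-type, 12.9 for the other) and the probe's own signal. Members were matched by the name in the files, and other genes by accession through RefSeq (GRCm38.p6, 66.1% of probes) or else by that name.

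With 1 array per group no test was run, and 2-fold was the size at which genes were counted. The technical spread is the median, over 240 probes with at least 5 usable spots, of the SD between spots of the log2 difference. The calculation was tested on simulated data, in which differences were put only into probes with wild-type signals above 100. Differences of dim probes, background calls, bounds and means over probes were not covered by that test. The members and lists were chosen with earlier results of these data known. Named are all members, each gene of the other lists 2-fold or more apart, the highest and lowest genes of a list without such genes, 9 pathway genes fixed by name, and 3 markers of a cell type. Some genes that this rule names are not reported here. Bmpr2, Tgfbi, Ccn1, Ccn4, Zap70, Cd4, Ms4a1, Sdc1, Ecm1 and genes not above background were named after their values were seen. So were Apob, Hnf4a, Col3a1, Acta2, Itgax, Marco, Cd34, Elane, Camp and Mpo. Alternatives were normexp (limma 3.58.1, offset 50), quantile, median and loess scaling, the value table, 2 filters on dim probes, the brightest probe and keeping outlier spots. Python 3.11.15 and R 4.3.3 were used.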

Additional observations from a re-analysis of the deposited data

How the results depend on the processing

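The 9 alternatives gave 78 values of single members with a reported value, of which 71 moved by less than the technical spread and 7 by more. All 7 came with normexp, out of 9 measured members. Many of the 71 could not move: for a member with 1 probe, the filters on dim probes and the brightest probe return the same value. Keeping outlier spots changed no member, and the median scale shifts every value alike. None of the 4 members 2-fold or more apart changed sign. With normexp background correction, 0 members lay 2-fold or more above wild-type and 0 as far below, and the median of the members was -0.0009. Over all genes 297 were higher (1.92%) and 572 lower (3.7%), in place of 613 (3.96%) and 980 (6.34%). The normexp offset is added to every signal, which by its construction draws dim differences toward 0. Under the stricter filter, which keeps probes with signals of at least 50 on both arrays, 6 members remained, 1 higher (Tgfbr2) and 1 lower (Fst). Of the 12276 genes that remained, 366 were higher (2.98%) and 729 lower (5.94%). Without a filter the median of all genes was -0.47, and the Tgfb2 value there, -0.39, is a difference between floors. Under the other alternatives 2 members were higher and 2 lower, as reported, beside 2.44% to 4.02% of all genes higher and 3.68% to 6.56% lower. The same alternatives were run for the named genes of the other pathway lists, a choice made after seeing the data, and none of those 2-fold or more apart changed sign. They were not run for genes named only as cell type markers. No paired analysis was possible because each group has 1 array. Dim signals limit Tgfb2 and Tgfb3, and 1 array per group limits every value.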

Other observations

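The BMP branch, which shares Smad4 and some receptors with the genes above, had mixed values. Of 15 BMP ligands and target genes 12 were measured. Of these, 1 lay 2-fold or more above wild-type and 3 as far below, beside 3.96% and 6.34% of all genes, and the median log2 difference was -0.58. Gdf2, which encodes BMP9, a ligand made by liver stellate cells, had signals of 360.9 and 220.3 and a log2 difference of -1.09, and Bmp4 had signals of 119.0 and 71.6 and a log2 difference of -1.11. Hamp, which encodes the iron hormone hepcidin and is induced by BMP signalling, was at -1.02, at -0.92 with normexp and at -0.70 under quantile normalization, and with normexp Gdf2 was at -0.86 and Bmp4 at -0.71, while Smad9, another target, was the higher gene. Bmp6 and Id4 were well above background in the library labelled Snail only, at least 2.29-fold and 2.48-fold higher. Bmper, which encodes a BMP-binding antagonist, was well above background in wild-type liver only, and was at least 2.54-fold lower in the library labelled Snail.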
